A study of Mus musculus with 6 samples.

Results

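Guidance genes are described here in fetal mouse gonads, wild type and mutant for Sox9. Sox9 is the gene of a transcription factor that directs Sertoli cell development. The group comprised semaphorins, plexins, neuropilins, ephrins, Eph receptors, Slits, Robos, netrins and Unc5 receptors. Members were chosen by gene symbol alone, from probe sets annotated to a single gene, with the brightest probe set over all 6 arrays standing for a gene. This gave 67 genes of 19937 measured. Wild-type gonads were hybridised on 3 arrays, 1 pool of 6 gonads each. The mutant, Sox9flox/flox; Sf1:creTr/+, was hybridised on another 3, 1 pool of 12 gonads each. All were taken at embryonic stage E13.5 without the mesonephros, on a mixed C57BL6/J and 129 background. In the mutant, Cre is driven by sequence of Nr5a1 (Sf1), which is active in somatic cells of the gonad and adrenal. No group carried the floxed alleles or the Cre alone, and pool size went with genotype. These cannot be told apart from the mutation of Sox9. The labels give neither sex nor litter, so the p-values measure only the spread between these pools, which may be technical. Arrays are named by the numbers in their titles: wild type 1, wild type 2, wild type 5, mutant 3, mutant 4 and mutant 6, and values below follow that order.

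Guidance proteins are secreted or membrane-bound cues and their receptors, known first from growing axons and later from vessels, epithelia and migrating cells. Semaphorins signal through plexins, and secreted semaphorins of class 3 mostly need a neuropilin as co-receptor. Ephrins are held in the membrane, those of the A type by a lipid anchor and those of the B type by a transmembrane stretch, and they bind Eph receptor tyrosine kinases on the neighbouring cell. Slits are large secreted ligands of Robo receptors, and netrins act through Dcc, Neo1 and the Unc5 receptors.

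Sox9 was 2.48-fold lower in the mutant (difference of -1.31 ± 0.14 log2, SE; limma adjusted p = 0.00124), and its 6 values did not overlap between groups. Of 8 Sertoli markers 7 fell, Sox9 itself among them, with a median difference of -2.13 log2 over the 8. All 4 measured Leydig markers fell, with a median of -3.81. The wild-type means of both lists all lay above the background mark of 6.67 log2, the 95th percentile of olfactory and vomeronasal receptor probe sets. Sox9 measured 7.52, 7.78 and 7.60 log2 on mutants 3, 4 and 6, still above that mark. All 7 pregranulosa markers, of the supporting cells of the ovary, rose (median of 1.90). None of 9 endothelial, 7 neural and Schwann or 4 macrophage markers passed the threshold in limma, but some markers of every other list did. Of 4 smooth muscle markers Acta2 (-1.51 log2) and Tagln (-1.07) fell and Myh11 (0.56) rose. Of 6 germ cell markers Stra8 (3.39) and Sycp3 (2.34), genes of meiosis, rose. Of 6 mesonephric markers Gata3 (1.20) rose and Lhx1 (-0.96) fell, of 5 coelomic epithelial markers Lgr5 (1.77) rose, and of 4 erythroid and liver markers Alas2 (-0.51) fell. The wild-type means of Stra8, Sycp3, Gata3 and the pregranulosa marker Runx1 lay below the background mark. So did the mutant means of the Sertoli markers Cst9 and Dhh and the Leydig marker Hsd3b1. The part of all these markers in the guidance gene values was not tested. Both group means of 4 of the 7 neural markers lay below that mark. In such bulk samples fewer cells of a type and less RNA per cell cannot be told apart. The liver gene Alb measured 11.42 log2 on wild type 5 and 5.60 to 6.60 on the other 5 arrays. Xist, expressed from the inactive X chromosome, measured 7.29 on mutant 3 and 4.97 to 5.48 on the others, while the Y-linked Eif2s3y lay between 9.56 and 9.77 on all 6. The Y-linked Uty was lowest on mutant 3, at 8.02 against 8.33 to 8.85 elsewhere, and Kdm5d measured 7.98 on mutants 3 and 4 and 8.16 to 8.46 elsewhere. Whether the pool of mutant 3 held gonads of both sexes was not tested. The counts below are therefore also given without wild type 5 and without mutant 3.

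Of the 67 guidance genes 15 passed an adjusted p of 0.05 in limma, which is 22.4%, while 6.94% of all genes passed. Higher in the mutant were 6, against 2.64% of all genes, and lower were 9, against 4.3%. In the group 59 members had a mean above the background mark, and of all genes above that mark 9.58% passed (3.47% higher, 6.11% lower). Without adjustment p was below 0.05 for 31 members, against 21.7% of all genes, with 9 higher (8.79% of all genes) and 22 lower (12.9%). The 3 wild-type and 3 mutant values did not overlap for 38 members, against 28.7% of all genes. The median difference was -0.12 log2 over the members and 0.0041 over all genes, and the median size of the difference, regardless of sign, was 0.26 against 0.15. Called differences ran from -1.53 to 1.28 log2, and 4 of the 15 were at least 2-fold. None of the 15 had overlapping groups. Their sign was therefore bound to be the same within arrays 1 to 4 and between arrays 5 and 6. The 6 higher genes became 3 (Plxna2, Plxna4 and Sema3a) when any one array other than mutant 6 was left out, and 5 when mutant 6 was. The 9 lower genes became 7 without wild type 1, 8 without wild type 5, mutant 3 or mutant 4, and stayed at 9 without wild type 2 or mutant 6. All genes called fell as well, from 1384 to between 593 and 1292, when 1 array was left out.

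**Figure D1:**
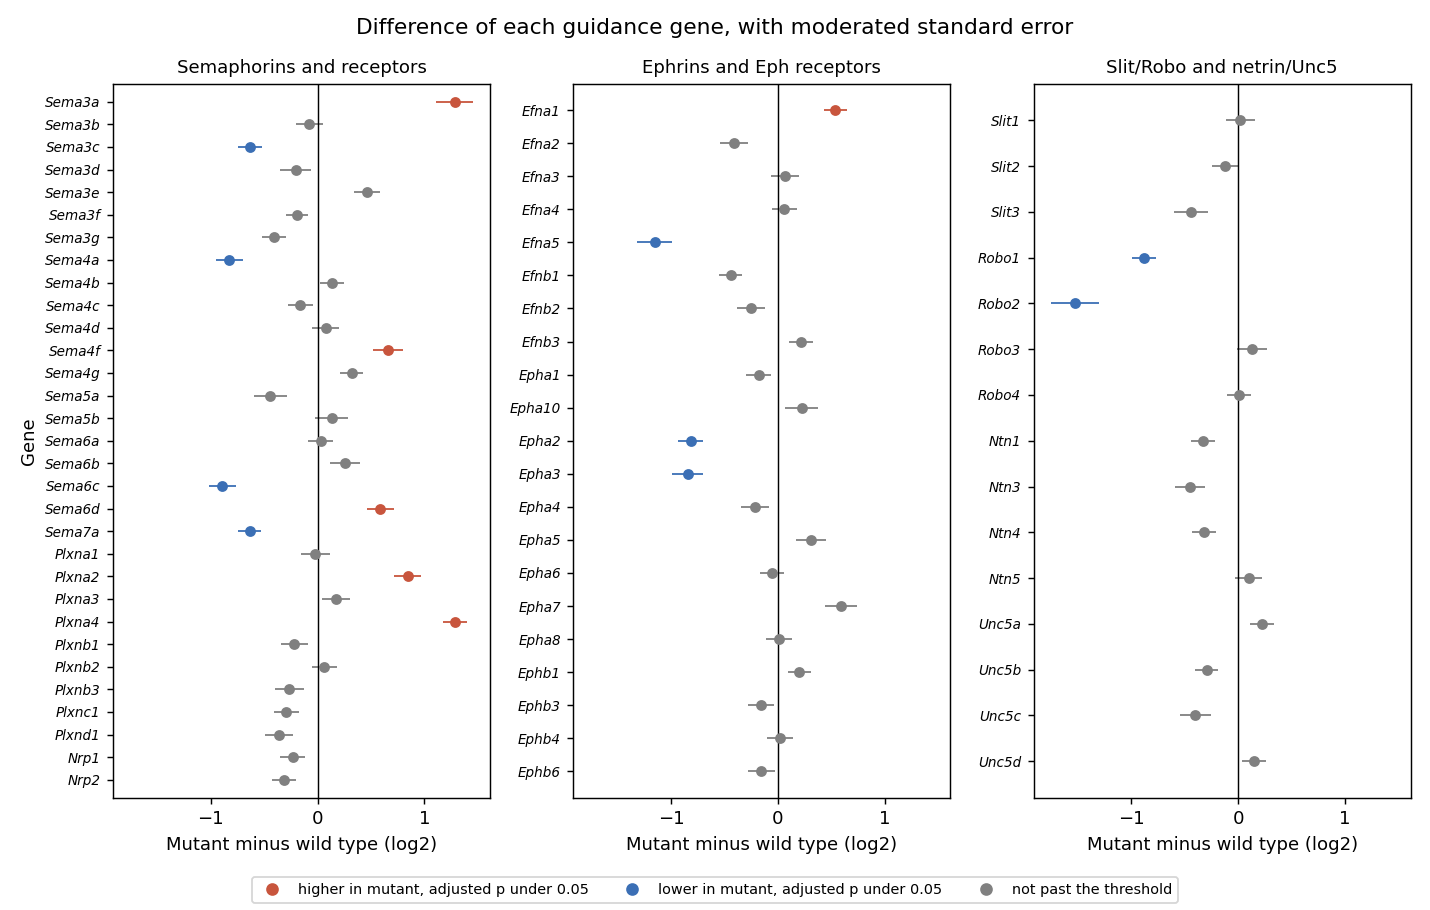
Difference between the Sox9 mutant and wild type (log2, x axis) for each of the 67 guidance genes, in 3 panels by family, with moderated standard errors as bars. Genes past the limma threshold are coloured, 6 higher and 9 lower. Robo2 (-1.53) and Plxna4 (1.28) mark the ends of the range.

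The semaphorin system held 9 of the 15 calls among 31 genes (29.0%, against 6.94% of all genes), 5 higher and 4 lower. Of 20 semaphorins 3 rose, 4 fell and 13 did not pass. Sema3a, the secreted cue that repels axons through neuropilin-1 and A-type plexins, measured 8.42, 8.16 and 8.37 log2 in wild type. In the mutant it measured 9.37, 9.43 and 9.98. Every mutant value lay above every wild-type value, and mutant 6 stood highest. Sema3a rose by 1.28 ± 0.17 log2 (SE, n = 3 each), 2.43-fold (limma adjusted p = 0.00318). Sema3d lies next to Sema3a on chromosome 5, with no protein-coding gene between them in the GRCm38.p6 table. It differed by -0.21 log2 (adjusted p = 0.498). Sema3e, on the other side with 3 genes between, differed by 0.46 (adjusted p = 0.0649), with a mean below the background mark. The 250 bases before the start site of Sema3a are printed because it rose most among the members with a RefSeq promoter window (GRCm38.p6, chr5:13396534-13396783, plus strand). No letter is in capitals, since capitals mark matches to AACAAT, the core letters of a SOX site, to AAGGTCA, a half-site of NR5A1, or to AGATAA, a site of GATA factors, on either strand, and this window holds none.
Sema3a: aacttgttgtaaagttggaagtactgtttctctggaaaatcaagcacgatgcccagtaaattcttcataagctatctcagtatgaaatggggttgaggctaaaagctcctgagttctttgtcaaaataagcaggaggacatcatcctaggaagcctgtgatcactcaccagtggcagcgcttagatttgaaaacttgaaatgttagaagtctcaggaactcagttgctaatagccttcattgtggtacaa
The Sema3a window has 40.8% G and C and 2 CpG pairs, against medians of 52.4% and 6 over the 32851 windows of the table.

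Other secreted semaphorins moved less. Sema3c, which acts through neuropilins and plexins in the developing heart and vessels, measured 8.37, 8.13 and 8.29 log2 in wild type. It measured 7.58, 7.62 and 7.70 in the mutant. The groups did not overlap, and the mutant arrays lay close together. Sema3c fell by 0.63 ± 0.12 log2 (limma adjusted p = 0.0141), a call that ended without wild type 1 (adjusted p = 0.0731), wild type 5 (0.0504), mutant 3 (0.0589) or mutant 4 (0.0514). Of the 7 class 3 genes, 5 did not pass. Besides Sema3d and Sema3e these were Sema3g, at -0.40 log2 (adjusted p = 0.0750), Sema3f, at -0.19, and Sema3b, at -0.08.

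Membrane-bound semaphorins moved both ways. Sema6c, of the transmembrane class that binds A-type plexins, measured 8.93, 8.77 and 8.84 log2 in wild type and 8.02, 8.10 and 7.75 in the mutant. The lowest wild-type array stood well above the highest mutant array. Sema6c fell by 0.89 ± 0.13 log2 (limma adjusted p = 0.00429). Sema4a, a transmembrane semaphorin also known from immune cells, measured 7.92, 7.91 and 8.10 in wild type and 7.29, 6.98 and 7.20 in the mutant. Its groups did not overlap either, and mutant 4 was lowest. Sema4a fell by 0.82 ± 0.13 log2 (adjusted p = 0.00606). Sema7a, the lipid-anchored semaphorin that binds plexin-C1 and integrins, measured 9.23, 9.31 and 9.33 in wild type and 8.68, 8.72 and 8.57 in the mutant. Both groups were tight. Sema7a fell by 0.63 ± 0.11 log2 (adjusted p = 0.0103), and among arrays 1 to 4 alone its adjusted p was 0.0564.

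Sema4f and Sema6d went the other way. Sema4f measured 6.51, 6.48 and 6.39 log2 in wild type, all below the background mark, and 7.22, 7.30 and 6.85 in the mutant. The mutant values lay above the mark, mutant 6 only just. With the background mark in place of the wild-type values, Sema4f rose at least 1.36-fold. The fitted difference was 0.66 ± 0.14 log2 (limma adjusted p = 0.0254), and its mean over 6 arrays passed the mark only through the mutant. Sema6d, which takes part in heart development through plexin-A1, measured 8.94, 8.83 and 8.58 in wild type and 9.33, 9.33 and 9.45 in the mutant. Its spread was larger in wild type. Sema6d rose by 0.59 ± 0.13 log2 (adjusted p = 0.0284). The call of Sema4f ended without any one array other than mutant 6 (adjusted p up to 0.0984), and that of Sema6d without any one array (0.0534 to 0.0841). The remaining membrane-bound genes did not pass. Of these, Sema5a differed by -0.44, Sema4g by 0.32, Sema6b by 0.26, Sema4c by -0.16, Sema4b by 0.14, Sema5b by 0.14, Sema4d by 0.08 and Sema6a by 0.03 log2.

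Among the receptors of semaphorins, 2 A-type plexins rose. Plexins carry the intracellular GTPase-activating domain through which semaphorins act on the cytoskeleton. Plxna4 measured 8.70, 8.61 and 8.51 log2 in wild type and 9.92, 9.78 and 9.97 in the mutant. The gap between the groups was several times the spread within either. Plxna4 rose by 1.28 ± 0.11 log2, 2.44-fold, with the lowest adjusted p among the members (limma adjusted p = 0.000561). Plxna2 measured 7.86, 7.83 and 7.49 in wild type and 8.57, 8.58 and 8.57 in the mutant. The mutant arrays were nearly equal, and wild type 5 was lowest of all. Plxna2 rose by 0.84 ± 0.13 log2 (adjusted p = 0.00595). Of the other A-type plexins, Plxna3 differed by 0.18 (adjusted p = 0.544) and Plxna1 by -0.02 (adjusted p = 0.962).

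None of the 5 plexins of the B, C and D types passed in limma, although for 2 of them the unadjusted p was below 0.05, as it was for 21.7% of all genes. Plxnd1, a receptor of Sema3e on vessels, differed by -0.36 ± 0.13 log2 (adjusted p = 0.161), and Plxnc1, the receptor of Sema7a, by -0.29 ± 0.12 (adjusted p = 0.217). Plxnb3 differed by -0.26, Plxnb1 by -0.22 and Plxnb2 by 0.06. Neither neuropilin passed. Nrp1, the co-receptor of Sema3a, measured 8.81, 8.68 and 8.80 log2 in wild type and 8.43, 8.67 and 8.48 in the mutant, where mutant 4 almost reached the lowest wild-type array. The difference was -0.23 ± 0.12 (adjusted p = 0.321). Nrp2 differed by -0.32 ± 0.11 (adjusted p = 0.161). Nrp1 and Plxnd1 are also expressed by endothelial cells. The 9 endothelial markers had medians of 8.62 to 8.82 log2 on the wild-type arrays and 8.40 to 8.60 on the mutant arrays, with a median difference of -0.25, and their part in these values was not tested.

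**Figure D2:**
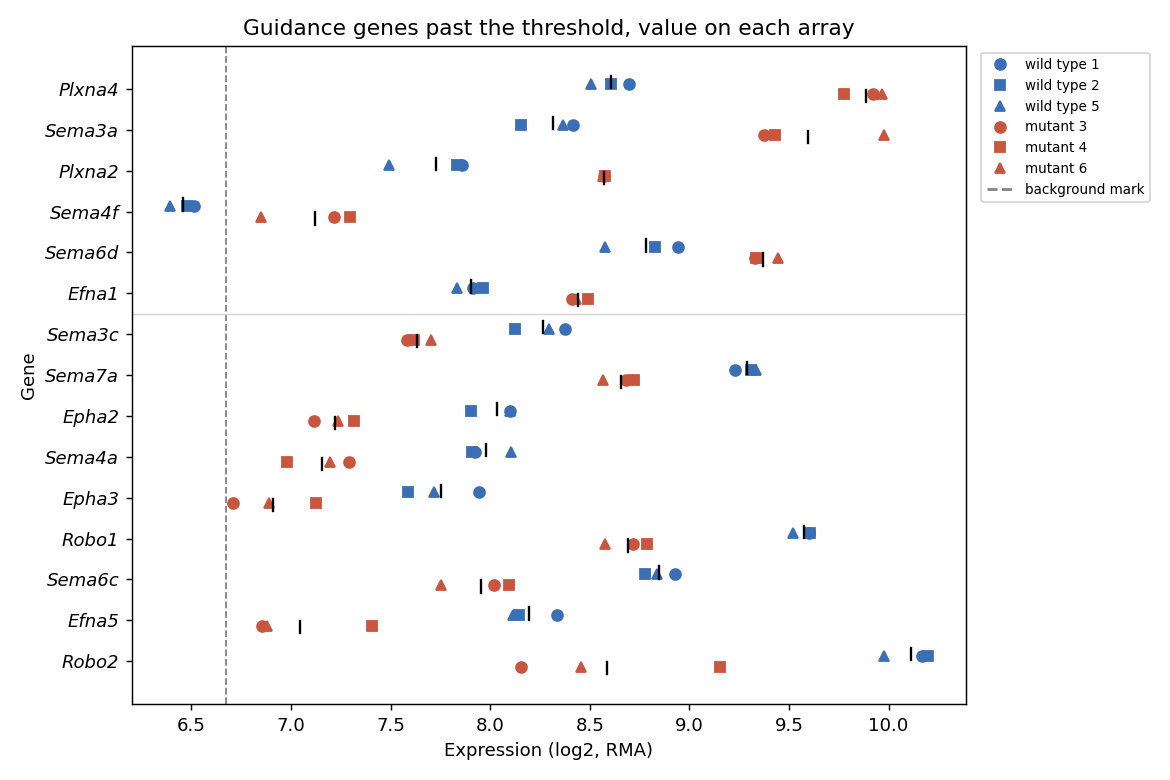
Expression (log2, RMA, x axis) of the 15 guidance genes past the limma threshold on each of the 6 arrays, wild type in blue and mutant in red, with short black lines at the group means. In none of the 15 do the groups overlap. The wild-type values of Sema4f lie below the dashed background mark at 6.67.

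Ephrins and Eph receptors gave 4 calls among 21 genes (19.0%, against 6.94% of all genes), 1 higher and 3 lower. All were of the A type, a difference from the B type that was not tested. Efna5 encodes ephrin-A5, a ligand of several EphA receptors that sets cell boundaries. It measured 8.33, 8.14 and 8.11 log2 in wild type and 6.85, 7.41 and 6.88 in the mutant. Mutants 3 and 6 were close to the background mark, and mutant 4 lay between them and wild type. Efna5 fell by 1.15 ± 0.16 log2, 2.22-fold (limma adjusted p = 0.00422). Epha3, a receptor of ephrin-A5, measured 7.95, 7.59 and 7.72 in wild type and 6.71, 7.12 and 6.89 in the mutant. Mutant 3 was barely above the background mark and mutant 4 again highest of the mutant arrays. Epha3 fell by 0.84 ± 0.15 log2 (adjusted p = 0.0111), and without wild type 1 its adjusted p was 0.0571. Windows of 250 bases before the start sites are printed for these because a ligand and one of its receptors fell together. That of Efna5 lies at chr17:62881318-62881567 and that of Epha3 at chr16:63864176-63864425, both on the minus strand of GRCm38.p6, with capitals as above.
Efna5: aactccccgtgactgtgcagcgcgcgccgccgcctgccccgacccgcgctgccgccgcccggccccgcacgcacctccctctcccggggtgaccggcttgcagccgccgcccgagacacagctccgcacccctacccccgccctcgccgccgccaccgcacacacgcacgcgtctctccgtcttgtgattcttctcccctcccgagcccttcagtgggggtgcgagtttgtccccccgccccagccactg
Epha3: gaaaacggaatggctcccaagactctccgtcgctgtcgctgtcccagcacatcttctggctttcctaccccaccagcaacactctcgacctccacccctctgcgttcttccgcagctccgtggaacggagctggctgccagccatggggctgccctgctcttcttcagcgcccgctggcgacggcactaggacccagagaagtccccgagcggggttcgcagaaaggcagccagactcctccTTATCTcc
Epha3 holds AGATAA on the opposite strand, beginning 8 bases before the start site, and Efna5 holds none of the motifs. The window of Efna5 is made up of 74.8% G and C with 32 CpG pairs, and that of Epha3 of 62.8% with 16.

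Epha2 encodes the main receptor of ephrin-A1, often found on epithelia. It measured 8.10, 7.91 and 8.10 log2 in wild type and 7.11, 7.32 and 7.24 in the mutant, with a gap between the groups larger than the range of either. Epha2 fell by 0.81 ± 0.12 log2 (limma adjusted p = 0.00456). Efna1 itself, the gene of ephrin-A1, measured 7.91, 7.97 and 7.83 in wild type and 8.41, 8.49 and 8.43 in the mutant. So the ligand was higher and the receptor lower in the same 3 mutant pools. Efna1 rose by 0.54 ± 0.11 log2 (adjusted p = 0.0199), and the call ended without any one array other than mutant 6 (0.0567 to 0.0793). Efna1, Efna3 and Efna4 stand in a row on chromosome 3 with no protein-coding gene between them. The neighbours Efna3 and Efna4 differed by 0.07 and 0.06 log2 (adjusted p = 0.845 and 0.839).

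The remaining members of this system did not pass. The nearest to the threshold were Efnb1, the X-linked gene of ephrin-B1, and Epha7. Efnb1 measured 10.15, 10.08 and 10.15 log2 in wild type and 9.62, 9.81 and 9.63 in the mutant, and differed by -0.44 ± 0.11 (limma adjusted p = 0.0518). Epha7 measured 8.42, 8.17 and 8.25 in wild type and 8.66, 8.78 and 9.17 in the mutant, and differed by 0.59 ± 0.15 (adjusted p = 0.0563). Neither gene had overlapping groups, which was also so for 28.7% of all genes, and each passed under 6 of the 18 other settings. Efna2 differed by -0.41 (adjusted p = 0.112), Efnb2, known from arteries, by -0.25 and Efnb3 by 0.22. Of the EphA receptors, Epha5 differed by 0.31, Epha10 by 0.22, Epha4 by -0.21, Epha1 by -0.18, Epha6 by -0.05 and Epha8 by 0.01, with Epha5 and Epha6 below the background mark. No EphB receptor of 4 passed in limma, even without adjustment. The differences were 0.20 for Ephb1, -0.16 for Ephb3, -0.15 for Ephb6 and 0.02 for Ephb4, the receptor that marks veins.

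In the Slit and Robo system, 2 of 4 receptors fell, as did 4.3% of all genes, while no Slit passed. Robo2 measured 10.17, 10.20 and 9.98 log2 in wild type and 8.15, 9.15 and 8.46 in the mutant. The wild-type arrays lay together, and mutant 4 kept a higher level than mutants 3 and 6. Robo2 fell by 1.53 ± 0.22 log2, 2.88-fold, the largest difference of the 67 genes (limma adjusted p = 0.00511). Robo1 measured 9.60, 9.60 and 9.52 in wild type and 8.72, 8.79 and 8.58 in the mutant. Its spread was small in both groups. Robo1 fell by 0.88 ± 0.11 log2 (adjusted p = 0.00243). Both calls held under every setting tried. Robo1 and Robo2 are next to each other on chromosome 16, with no protein-coding gene between. For that reason their windows are shown, at chr16:72662899-72663148 on the plus strand for Robo1 and, for the one of 3 Robo2 start sites with a motif match, at chr16:75092771-75093020 on the minus strand (GRCm38.p6).
Robo1: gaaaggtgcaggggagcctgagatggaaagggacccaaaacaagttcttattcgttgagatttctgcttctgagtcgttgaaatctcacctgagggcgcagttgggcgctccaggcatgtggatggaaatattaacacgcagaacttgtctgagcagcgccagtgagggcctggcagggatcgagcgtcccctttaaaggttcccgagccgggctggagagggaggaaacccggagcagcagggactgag
Robo2: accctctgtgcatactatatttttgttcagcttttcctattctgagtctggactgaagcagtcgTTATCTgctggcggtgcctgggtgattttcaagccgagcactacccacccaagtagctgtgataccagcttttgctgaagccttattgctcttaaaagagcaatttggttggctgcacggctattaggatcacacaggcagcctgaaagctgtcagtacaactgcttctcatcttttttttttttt
Robo2 has the letters of AGATAA on the opposite strand, beginning 186 bases before that start site, while Robo1 has no match to any of the motifs. G and C make up 56.0% of the Robo1 window and 44.8% of this Robo2 window.

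Robo4, a Robo of endothelial cells, differed by 0.01 log2 (limma adjusted p = 0.984), and Robo3, which lies beside it and was below the background mark, by 0.13. Slit2, a main ligand of Robo1 and Robo2, measured 10.10, 9.92 and 9.79 log2 in wild type and 9.76, 9.92 and 9.78 in the mutant. The groups overlapped, and the difference was -0.12 ± 0.12 (adjusted p = 0.679). Slit3 measured 8.31, 8.47 and 7.94 in wild type and 7.88, 7.93 and 7.60 in the mutant. Wild type 5 stood only just above mutant 4, and the difference of -0.44 ± 0.16 did not pass (adjusted p = 0.168). Slit1 was below the background mark, at a difference of 0.02.

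No netrin and no Unc5 gene passed in limma, though 5 of the 8 had an unadjusted p below 0.05, all 5 lower in the mutant, as were 12.9% of all genes at that limit. Netrins are laminin-like secreted proteins, and Unc5 receptors mediate repulsion from them. Ntn3 differed by -0.45 ± 0.14 log2 (adjusted p = 0.114), Ntn1 by -0.33 ± 0.11 (adjusted p = 0.140) and Ntn4, a basement membrane netrin, by -0.32 ± 0.11 (adjusted p = 0.166). Each had groups that did not overlap, as had 28.7% of all genes. Unc5c differed by -0.40 ± 0.14 (adjusted p = 0.162) and Unc5b, found on vessels, by -0.30 ± 0.11 (adjusted p = 0.167). Unc5a differed by 0.22, Unc5d by 0.15 and Ntn5 by 0.10, the last pair below the background mark.

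The shift of single mutant arrays from the wild-type mean varied among the called genes. Of the 9 lower genes, 7 moved least on mutant 4, where Robo2 stood at -0.96 log2 against -1.96 and -1.66 on mutants 3 and 6. Efna5 stood at -0.79 on mutant 4 against -1.34 and -1.32. The exceptions were Sema4a, which moved most on mutant 4, and Sema3c. The medians of the Sertoli markers moved alike, at -2.65, -1.48 and -2.26 on mutants 3, 4 and 6, as did those of the Leydig markers, at -4.66, -2.05 and -4.73. Their part in the lower values was not tested. Among the 6 higher genes 1, Plxna4, moved least on mutant 4. Sema3a moved most on mutant 6 (1.66 log2, against 1.06 and 1.12). The pregranulosa medians were 2.03, 1.63 and 1.96.

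**Figure D3:**
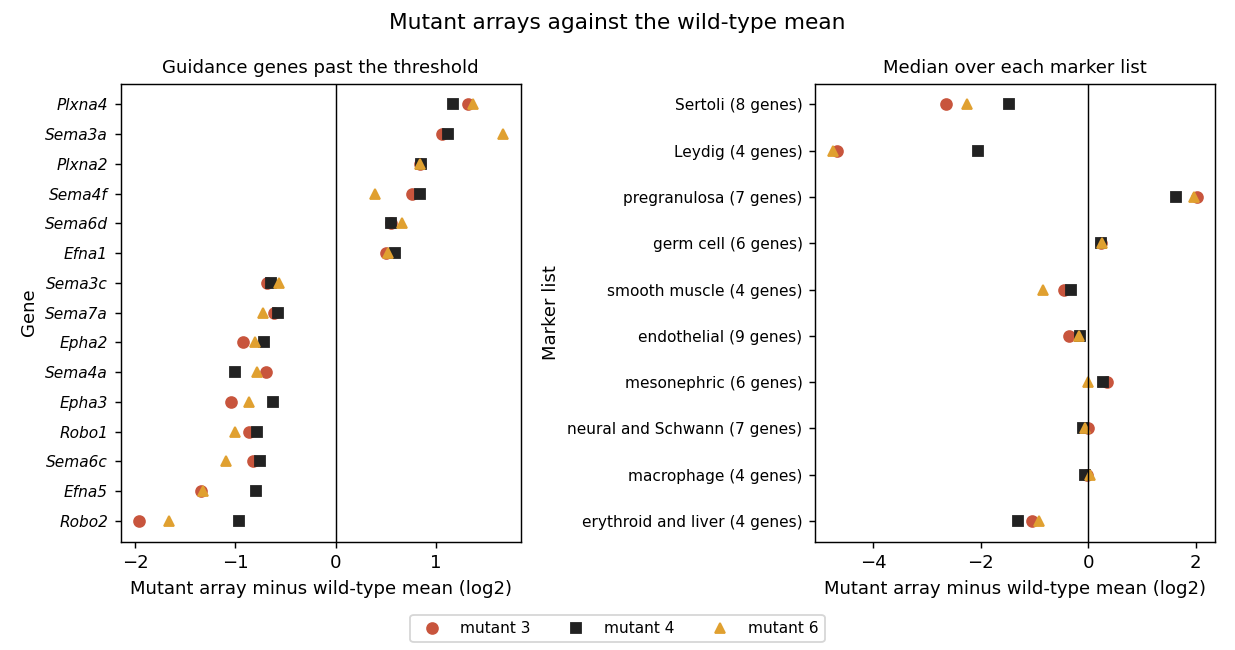
Value of each mutant array minus the wild-type mean (log2, x axis), for the 15 called guidance genes (left) and as medians over marker lists (right). The coelomic epithelial list is not drawn. The wild-type mean of the erythroid and liver list was raised by wild type 5, with a list median of 10.40 log2. On wild types 1 and 2 that median was 6.12 and 6.60. Mutant 4 (black squares) lies nearest to 0 for Robo2 and Efna5, and for the Sertoli and Leydig lists.

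Genes that act beside these ligands and receptors were taken from a list of co-receptors, adaptors and effectors, of which 51 were measured. Of these 5 rose, 2 fell and 44 did not pass, so that 13.7% were called against 6.94% of all genes. In this list 46 had a mean above the background mark, and of all genes above that mark 9.58% were called. The median difference was 0.07 log2. Flrt2, a membrane ligand of Unc5 receptors, rose by 1.05 ± 0.12 log2 (limma adjusted p = 0.00164). Adgrl3, a latrophilin that binds Flrt proteins, rose by 0.89 ± 0.16 (adjusted p = 0.0119). Met, a receptor tyrosine kinase that associates with B-type plexins, rose by 0.98 ± 0.15 (adjusted p = 0.00633). Srgap2, of the GTPase-activating proteins that bind the cytoplasmic part of Robo receptors, rose by 0.73 ± 0.11 (adjusted p = 0.00577). Its relatives Srgap1 and Srgap3 differed by 0.46 and 0.40 without passing (adjusted p = 0.0740 and 0.0900). Neo1, a receptor of netrins and repulsive guidance molecules, rose by 0.59 ± 0.12 (adjusted p = 0.0250). Mical2, of a family of actin-oxidising enzymes, fell by 0.96 ± 0.22 (adjusted p = 0.0373). Gpc1, a heparan sulfate proteoglycan that binds Slits, fell by 0.61 ± 0.13 (adjusted p = 0.0239). Dcc, the netrin receptor of commissural axons, lay below the background mark and differed by -0.07. The count of 7 became 4 without wild type 1, wild type 2, wild type 5 or mutant 3. The calls of Flrt2, Met and Srgap2 held under each of those, whereas those of Neo1 and Mical2 did not (adjusted p up to 0.0938 and 0.142). Neo1 also lost its call without mutant 4 (0.0536), and Mical2 without mutant 6 (0.0743). Mical2 lost it as well with a further quantile normalization (0.0511) and with array weights (0.0586). With no rows left out, Neo1 (0.0572), Mical2 (0.0904) and Gpc1 (0.0559) did not pass. Gpc1 lost its call without wild type 1, wild type 5, mutant 3 or mutant 6 (up to 0.110), and Adgrl3 without wild type 2 (0.0517).

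RefSeq promoter windows were found for 58 of the 67 members, 74 windows in all, and for 14 of the 15 called genes. Over the members' windows G and C made up a median of 64.4%, against 52.4% over all windows. AACAAT was in 3 of the 74 windows (4.05%, against 9.42% of all windows) and in 0 of the 22 windows of called genes. AAGGTCA was in 4 (5.41%, against 4.08%), also in 0 of those 22. AGATAA was in 3 (4.05%, against 9.99%), of which 2 belong to called genes, Epha3 and Robo2. These are matches of letters in a short window, and the base composition differs between the sets.

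For 4 members, none of them called, a second probe set was measured. It differed by -0.01 log2 for Epha10, by 0.09 for Ephb1, by 0.22 for Sema4d and by 0.21 for Unc5d, and none passed in limma (adjusted p from 0.463 to 0.979). Only for Epha10 did the sign differ from that of the brighter probe set.

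The 15 calls differed in how they depended on the arrays. Of these genes 9 passed under all 18 other settings. They were Robo1, Robo2, Efna5, Epha2, Sema6c, Sema4a, Sema3a, Plxna4 and Plxna2, with adjusted p of at most 0.0343 (Robo2). The highest adjusted p of Plxna4 was 0.00498 and that of Robo1 0.0188. The other 6, which were Efna1, Sema4f, Sema6d, Sema3c, Epha3 and Sema7a, each lost the call under at least 1 setting besides the stricter threshold.

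**Figure D4:**
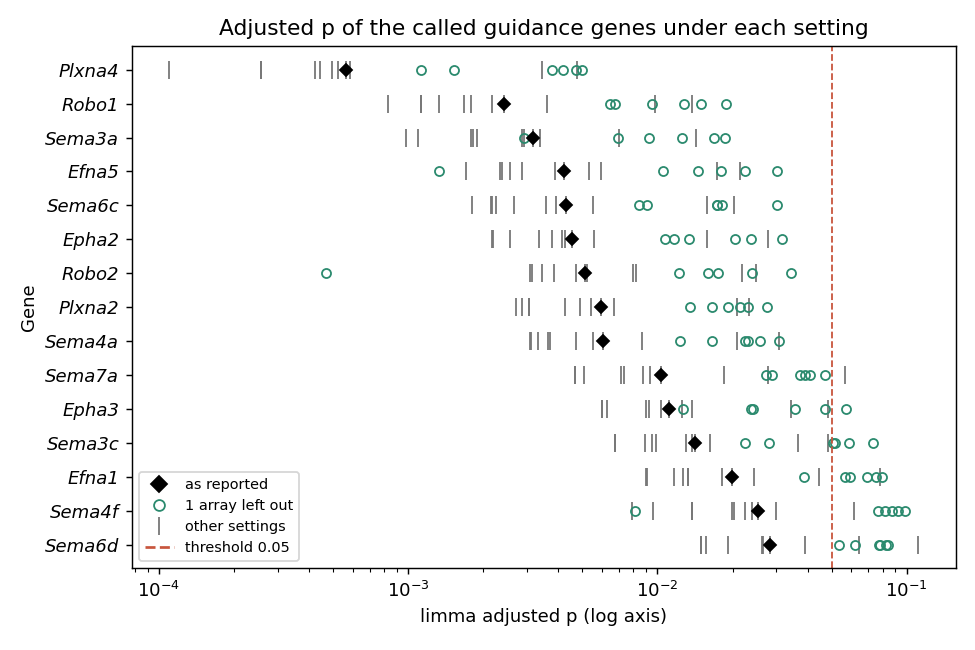
Adjusted p in limma (log axis, x) of the 15 called guidance genes, as reported (diamonds), with 1 array left out (circles) and under other settings of the fit (ticks). Plxna4 stays below 0.00498 or equal to it, while Sema6d, Sema4f and Efna1 cross the dashed threshold of 0.05 with several arrays left out.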

How the data were processed

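RNA of 6 gonad pools was measured on Affymetrix arrays from 300 ng of total RNA each. The values are log2 expression as deposited by the authors, made with RMA per the submitters' processing notes. For its version and settings the sources used here give nothing. RMA compresses differences near background, and equal distributions hide a general change in RNA content. Of 34760 rows, 6573 with identifiers below the lowest annotated one were left out. The remaining 28187 probe sets were fitted together in limma 3.58.1 (R 4.3.3; lmFit, eBayes, 2-sided), with Benjamini-Hochberg adjustment over all of them, a threshold of 0.05 and moderated standard errors. Genes were named from 21640 probe sets with a single annotated gene. The number of arrays limits the precision, and levels are not compared between probe sets. The fit was also run on simulated data with independent normal noise, which holds no effects of single arrays. Its outcome is not reported here. Members, lists and named genes follow fixed rules, but were chosen with earlier results of these data known. The rule names every called member with each array's values, in each role group the brightest member and the 2 largest differences short of the threshold, and the 6 largest called partner genes. Neo1, Srgap1, Srgap3, Dcc and the array values of further uncalled members were added after their values were seen. Promoter windows come from RefSeq (GRCm38.p6). Alternatives were other scalings, filters, variance models and gene summaries, arrays 5 and 6 as a batch, leaving out each array, and a threshold of 0.01. A fit of arrays 1 to 4 alone was chosen after seeing the data.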

Additional observations from a re-analysis of the deposited data

How the results depend on the processing

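No paired analysis was possible because the groups share no array number. The 15 called genes kept their direction under all 18 other settings. Leaving out arrays, arrays 1 to 4 alone and array weights could not change it, because the groups of these genes did not overlap. Neither could the threshold of 0.01. The dimmer probe set and the mean of a gene's probe sets could not either, since none of them had a second probe set. Both filters on dim probe sets, eBayes with a trend, the batch term and the fit with no rows left out leave each difference as it was. Only the further quantile normalization and the common median could have changed a direction. The median difference over the members stayed between -0.18 and -0.080 log2. With 1 array left out, 3 to 5 guidance genes were higher and 7 to 9 lower, 6 to 8 of the semaphorin system were called, 2 to 4 of the ephrins and Eph receptors, 2 of the Slit, Robo, netrin and Unc5 genes and 4 to 6 partner genes. Of all genes 2.97% to 6.48% were called there, and the difference of Sox9 ran from -1.39 to -1.19 log2. At a threshold of 0.01, 3 guidance genes were higher, 5 of the semaphorin system, 2 ephrins or Eph receptors and 3 partner genes were called. Of all genes 2.64% passed at that threshold. With arrays 5 and 6 as a batch 4 of the Slit, Robo, netrin and Unc5 genes were called. Efnb1, Epha7, Ntn3, Sema3e and Slit3 then passed in addition to the 15, while the share of all genes called rose from 6.94% to 10.3%. Either filter on dim probe sets, which leaves fewer genes tested, gave 11 partner genes, while 13.6% and 13.7% of all genes tested were called. With no rows left out, 4 partner genes and 3.87% of all genes were called. Among arrays 1 to 4 alone 3 partner genes and 4.49% of all genes were called. That fit, chosen after seeing the data, gave 12 guidance genes. The cause of the other changes was not tested. Sign changes occurred only in members that did not pass. With the further quantile normalization the differences were -0.0253 (Epha8), 0.0379 (Plxna1) and -0.0295 log2 (Slit1). With a common median they were -0.00909 (Epha8), -0.000576 (Ephb4), -0.0148 (Robo4) and -0.000142 (Slit1). With array weights they were -0.00602 (Efna3), -0.0102 (Epha8), -0.0153 (Robo4) and -0.0115 (Slit1). Among arrays 1 to 4 alone they were 0.0248 (Epha6), -0.00129 (Sema4d) and -0.0363 (Sema6a), and at the dimmer probe set -0.0130 (Epha10). With 1 array left out the lowest and highest values were -0.0256 and 0.176 (Efna3), -0.109 and 0.0161 (Epha6), -0.0541 and 0.0784 (Epha8), -0.0713 and 0.0998 (Ephb4), -0.139 and 0.0479 (Plxna1), -0.00648 and 0.13 (Plxnb2), -0.0294 and 0.0614 (Robo4), -0.132 and 0.0306 (Sema3b), -0.0255 and 0.11 (Sema6a) and -0.0752 and 0.106 (Slit1).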
